A study of Homo sapiens with 6 samples.

Results

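The F-box substrate receptors are the proteins that choose which targets the SCF ubiquitin ligases mark. They were taken as the protein-coding rows whose GENCODE v44 symbol on GRCh37 begins with FBXO, FBXL or FBXW and a number. This gave 62 genes of the 57773 rows in the table, 36 FBXO, 17 FBXL and 9 FBXW genes, and all 62 genes of this naming scheme in the annotation were found. RNA was measured in 6 libraries of H460, an established line of human non-small-cell lung cancer. In 3 libraries (siNT) the cells had received a non-targeting siRNA, and in 3 libraries (si*HKlincR1*) the siRNA named siHKlincR1_2, which targets the long intergenic noncoding RNA *HKlincR1* (AC093323.3, ENSG00000170846). GENCODE v44 lists this identifier as protein-coding. Both siRNAs were given at 50 nM for 48 hours with a lipid reagent. The labels call the libraries of a group biological replicates. All si*HKlincR1* libraries come from 1 siRNA, so effects of losing *HKlincR1* and other effects of that siRNA cannot be told apart, and all libraries come from 1 cell line.

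An SCF ligase is built on the cullin CUL1. At one end CUL1 holds the RING protein RBX1, which brings in a ubiquitin-loaded E2 enzyme, and at the other end it holds the adaptor SKP1. SKP1 in turn binds the F-box, a short motif shared by all receptors, while the rest of each receptor recognises the substrate. FBXW proteins read it through WD40 repeats and FBXL proteins through leucine-rich repeats, and the FBXO proteins carry other domains or none that is known. The receptors compete for a common pool of CUL1 and SKP1, and attachment of NEDD8 to CUL1 switches the ligase on. Receptors of this family turn over cyclins, iron regulators and signalling inhibitors, and several are altered in cancer. FBXO21 is a widely expressed FBXO protein that has been linked to the turnover of EID1, a regulator of differentiation, and to the ubiquitylation of the stress kinase MAP3K5.

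The values are RPKM, read counts divided by the length of the gene model and by the library's total. The library totals worked back from them were 24980280 to 30521000 reads, of which 89.9% to 91.1% lay on listed genes. *HKlincR1* was at 3.62, 3.47 and 3.83 RPKM in the siNT libraries and at 0.563, 0.628 and 0.390 RPKM in the si*HKlincR1* libraries, as the labels require. The keratins KRT8, KRT18 and KRT19 were between 28.1 and 88.5 RPKM in every library. The epithelial adhesion genes EPCAM (at most 0.110 RPKM) and CDH1 (at most 0.00543 RPKM), and the lung lineage genes NKX2-1 and SFTPC, were at or near 0, so the label of a lung epithelial origin rests on keratins here. Of the markers of other cell types, PTPRC, COL1A2 and VWF were at or below 0.0691 RPKM, and COL1A1 averaged 1.10 RPKM under siNT and 0.580 RPKM under si*HKlincR1*. In bulk RNA of this kind, fewer cells of a kind and less RNA per cell cannot be told apart.

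The siRNA and its seed matches are shown because the seed, the bases at positions 2 to 8 of the guide strand, is the stretch through which an siRNA can also pair with other mRNAs. Capitals mark the seed in the guide strand, its complement in the sense strand, and the 7 matching bases in each site, with 11 bases on either side. The strands are given 5′ to 3′, and the 3′ UTR sites are the transcript strand of the GRCh37 genome.
siHKlincR1_2 sense strand: gaaguauacucGUGUGCUu
siHKlincR1_2 guide strand: aAGCACACgaguauacuuc
FBXO21 site at UTR position 156: gtttaaataccGTGTGCTcttccccagct
FBXO21 site at UTR position 504: gaggtaaagttGTGTGCTatcttggcagc
FBXW11 site: cacctttatacGTGTGCTtgcctcctaat
FBXW2 site: catatttttatGTGTGCTtatttgtatct
FBXW5 site: gaggcgctgagGTGTGCTgggtgcactgg

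All of these sites lie on the minus strand of the genome. The FBXO21 matches are at chr12:117583730-117583736 and chr12:117583382-117583388, in the 4096-nt 3′ UTR of ENST00000622495. The FBXW11 match is at chr5:171290395-171290401, the FBXW2 match at chr9:123519398-123519404 and the FBXW5 match, at UTR position 2, at chr9:139835372-139835378. Only the letters GTGTGCT were searched for, on the transcript strand of the canonical transcript. A match is a description of the sequence and not evidence of binding.

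FBXO21 was lower after *HKlincR1* knockdown, and it was the only F-box gene of the 50 tested that passed the test. FBXO21 (ENSG00000135108) lies on the minus strand of chromosome 12 from 117579796 to 117628275 (GRCh37). The siNT libraries were at 12.7, 12.8 and 11.5 RPKM, from 1965, 2194 and 1606 reads. The si*HKlincR1* libraries were at 7.28, 7.30 and 6.53 RPKM, from 1159, 1181 and 1093 reads. The groups did not overlap, and the highest si*HKlincR1* value was well below the lowest siNT value. The mean fell from 12.3 ± 0.734 to 7.03 ± 0.439 RPKM (SD, n = 3), a reduction of 42.9%. Between same-numbered libraries the reduction was 42.5%, 43.2% and 43.2%. These 3 values were nearly alike, but whether same-numbered libraries are pairs is uncertain.

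Fold changes were tested with limma on log2(RPKM + 0.1) over the 15451 genes that averaged 0.5 RPKM or more, a scale that understates the change of low genes. A gene was called at a Benjamini-Hochberg adjusted p under 0.05 over all tested genes and a fold change above 1.5. FBXO21 had a log2 fold change of -0.80 (SE 0.081, limma adjusted p = 0.0155), and its p-value ranked 20 of 15451. Of all tested genes, 55 were called lower (0.356%) and 1 was called higher (0.00647%), against 1 and 0 of the 50 tested F-box genes. The exact two-sided permutation test over the libraries gave p = 0.10, the lowest value open to 3 libraries against 3. Its log2 fold change lay between -0.85 and -0.73 under 14 alternative settings, but the adjusted p exceeded the threshold without limma's mean-variance trend (0.0547) and in 5 of the 6 fits that left out 1 library (0.0523 to 0.115). Those were the fits without siNT replicate 1 (limma adjusted p = 0.106), 2 (0.115) or 3 (0.0523) and without si*HKlincR1* replicate 1 (0.113) or 2 (0.0594), while the fit without si*HKlincR1* replicate 3 gave 0.0173.

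The place of FBXO21 within the family moved with its level. Under siNT it ranked 4 of 62 by mean RPKM, among FBXO22, FBXO11 and FBXO28, from which it differed by less than the spread between libraries. Under si*HKlincR1* it ranked 11. It supplied 4.57%, 4.63% and 4.21% of the summed RPKM of the 62 genes in the siNT libraries and 2.56%, 2.52% and 2.45% in the si*HKlincR1* libraries. The sum itself was 277.0, 277.7 and 273.2 RPKM under siNT and 284.6, 289.2 and 266.2 RPKM under si*HKlincR1*, and the groups overlapped.

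**Figure D1:**
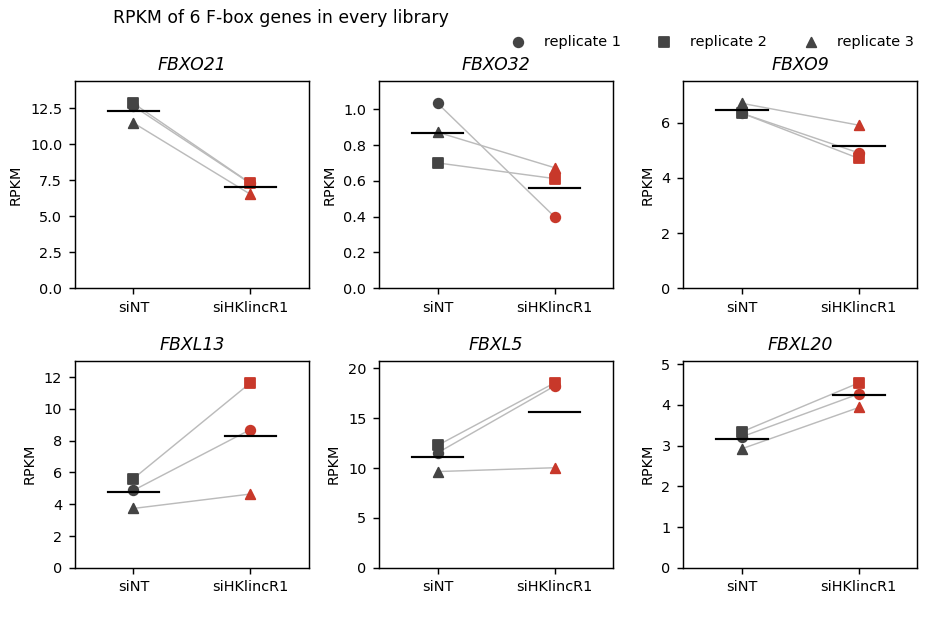
RPKM of 6 F-box genes in each of the 6 libraries, on a separate axis from 0 for each gene, with a black bar at each group mean and grey lines between libraries of the same replicate number. FBXO21 stands at 11.5 to 12.8 RPKM in the siNT libraries and 6.53 to 7.30 RPKM in the si*HKlincR1* libraries, while FBXL13 and FBXL5 spread widely among the si*HKlincR1* libraries.

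H460 cells carried RNA of most of the family. By the mean over the 6 libraries, 7 genes were at 10 RPKM or more, 35 between 1 and 10 RPKM, 8 between 0.5 and 1 RPKM and 12 below 0.5 RPKM. RPKM is scaled to the length of the gene model, so levels and ranks between genes depend on that model. For FBXO22 the length worked back was 4595 nt, while the 3′ UTR of its canonical GENCODE v44 transcript alone has 9409 nt. Of the tested genes, 28 were FBXO, 15 FBXL and 7 FBXW genes. The 7 genes at 10 RPKM or more were FBXW5, FBXW11, FBXO22, FBXL5, FBXO28, FBXO11 and FBXW2. Of these, FBXO11 shares 31.5% of its GENCODE v44 exon length with MSH6 and FBXO22 16.2% with NRG4, each on the opposite strand. The strand setting of the counting is not given in the sources used here.

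FBXW5, which acts on the centriole protein SASS6, led the family by a wide margin. It was at 38.0, 36.2 and 40.5 RPKM under siNT and 33.7, 34.1 and 36.1 RPKM under si*HKlincR1*. All si*HKlincR1* values were lower, the nearest only just so, and the log2 difference of -0.14 missed the thresholds (limma adjusted p = 0.342). FBXW11, a paralogue of BTRC that recognises phosphorylated β-catenin and IκB, was at 14.2, 15.4 and 15.04 RPKM under siNT and 13.0, 12.9 and 13.4 RPKM under si*HKlincR1*. Its log2 difference was -0.18 (limma adjusted p = 0.265), and the pseudogene FBXW11P1 could share reads with it.

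FBXO22, which acts on the histone demethylase KDM4A, was at 13.2, 12.1 and 12.6 RPKM under siNT and 15.3, 14.3 and 14.3 RPKM under si*HKlincR1*. All si*HKlincR1* values were higher, with a log2 difference of 0.21 that missed the thresholds (limma adjusted p = 0.236). FBXO28 was at 12.1, 12.2 and 12.2 RPKM under siNT and 14.2, 14.9 and 12.1 RPKM under si*HKlincR1* (log2 difference 0.17, limma adjusted p = 0.373). Its si*HKlincR1* replicate 3 lay at the siNT level. By the siNT means FBXW11 (14.9 RPKM) came next after FBXW5, followed by FBXO22, FBXO21, FBXO11 and FBXO28, which lay between 12.1 and 12.6 RPKM and did not differ beyond the spread between libraries.

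Receptors of the cell cycle were present at moderate to low levels. FBXO5 (EMI1), an inhibitor of the anaphase-promoting complex, averaged 6.996 ± 0.677 RPKM under siNT and 6.54 ± 0.308 RPKM under si*HKlincR1* (SD, n = 3; log2 difference -0.09, limma adjusted p = 0.622). FBXW7, the receptor for cyclin E and MYC, averaged 1.496 ± 0.0706 and 1.63 ± 0.0757 RPKM (log2 difference 0.12, limma adjusted p = 0.601). FBXO43 (EMI2), best known from oocytes, was at about 1 RPKM. FBXO7, linked to parkinsonism, averaged 9.78 ± 0.289 and 9.31 ± 0.509 RPKM.

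The lower end of the family held genes with few or no reads. The muscle gene FBXO40 and FBXO39 were listed at 0 in all libraries, and FBXO47 and FBXW12 rested on 1 read in 1 library each. FBXO15, FBXL7 and FBXL22 were below 0.1 RPKM, and FBXO24, FBXW10, FBXO10, FBXO2 and FBXO36 were between 0.1 and 0.5 RPKM. The 12 genes below 0.5 RPKM fell under the limit of the test and are given as levels. FBXO2 is also given with a lower limit further on. FBXL22 had 0, 2 and 1 reads under siNT and 8, 5 and 3 reads under si*HKlincR1*.

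**Figure D2:**
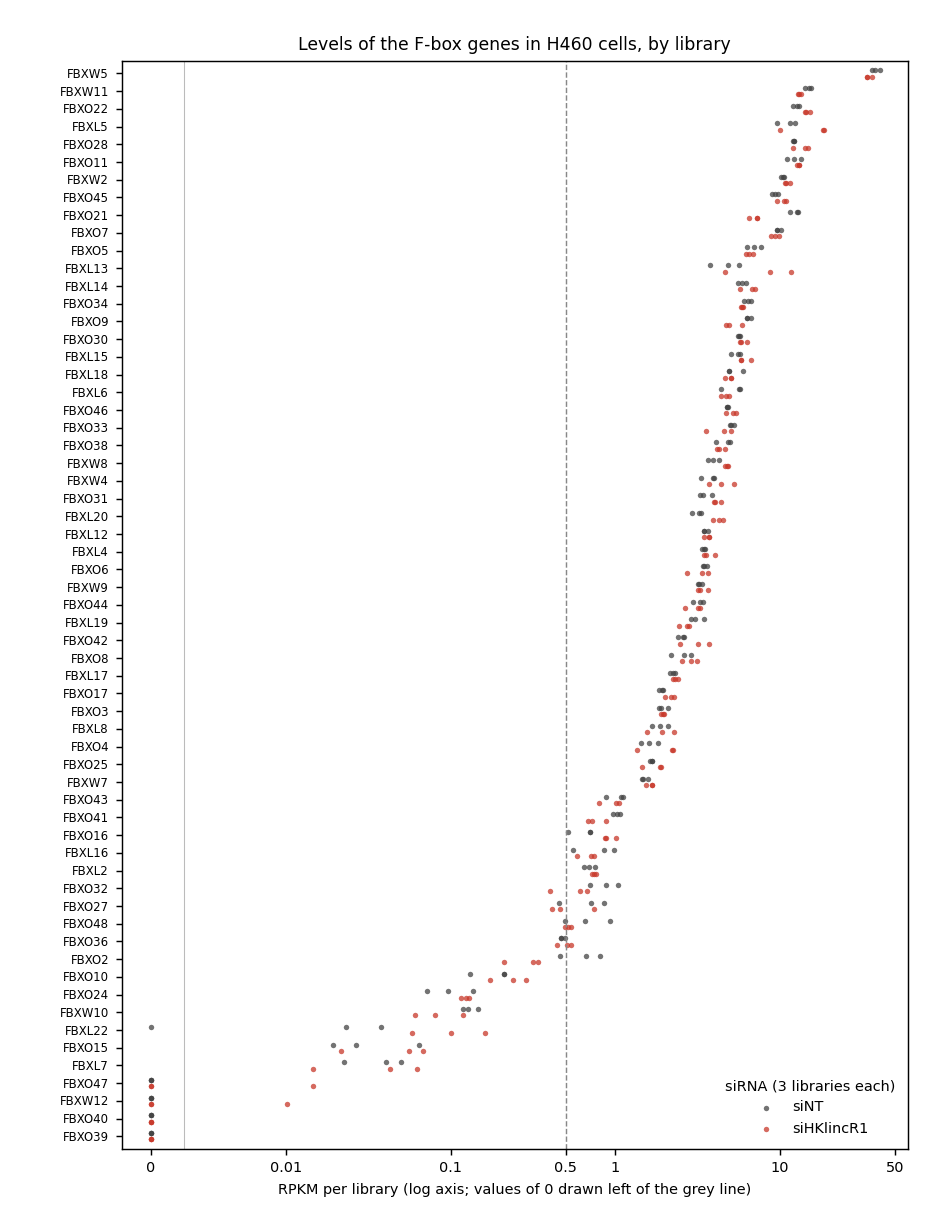
RPKM of the F-box genes in each library (all but 1), on a log axis, in order of the mean over all 6 libraries, with siNT points in grey, si*HKlincR1* points in red, values of 0 left of the grey line and a dashed line at the 0.5 RPKM limit of the test. FBXW5 stands at the top, 42 genes have a mean of 1 RPKM or more, and the siNT and si*HKlincR1* points of FBXO21 lie apart.

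Across the family the differences were small and went both ways. Of the 50 tested genes 22 were lower and 28 higher, with a median log2 fold change of 0.05, against 0.00 over all tested genes. The median was -0.04 for FBXO, 0.06 for FBXL and 0.09 for FBXW genes. Before adjustment, p was under 0.05 for 3 genes in the lower direction (6%) and 5 in the higher direction (10%), against 9.19% and 7.04% of all tested genes. The values of the groups did not overlap for 8 genes that were lower (16%) and 9 that were higher (18%), against 11.9% and 10.1% of all tested genes. A difference past 1.5-fold was seen in 2 of 50 genes (4%), FBXO21 and FBXL13, against 5.42% of all tested genes.

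**Figure D3:**
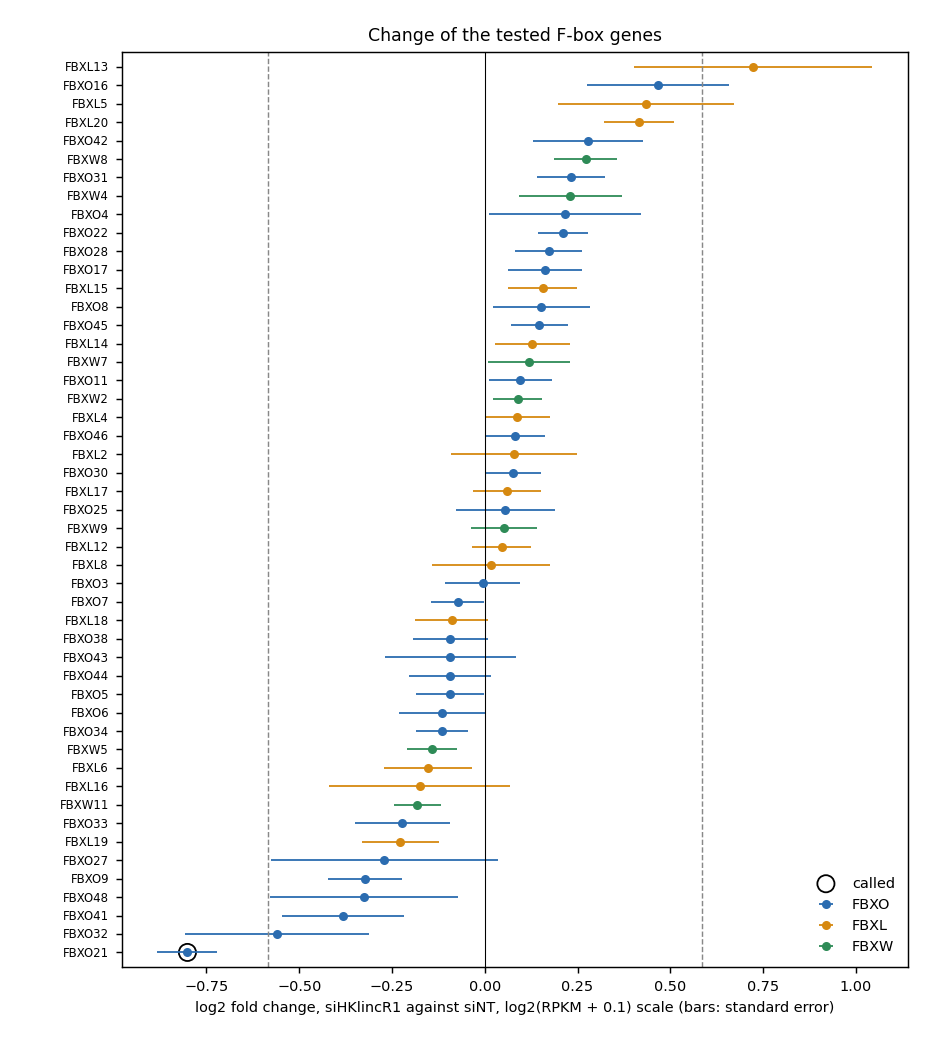
Log2 fold change (si*HKlincR1* against siNT, log2(RPKM + 0.1) scale) of the tested F-box genes (all but 1) in order, with bars of 1 standard error and dashed lines at a fold change of 1.5. FBXO21 at -0.80 is the only gene called, and FBXL13 at 0.72 lies past the line at the other end with a much wider bar.

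Among the tested genes, the largest negative difference after FBXO21 was in FBXO32 (atrogin-1), a receptor of wasting muscle. It was at 1.03, 0.700 and 0.872 RPKM under siNT and 0.399, 0.612 and 0.673 RPKM under si*HKlincR1*. The groups did not overlap, but the log2 difference of -0.56 had an SE of 0.25 and missed the thresholds (limma adjusted p = 0.320). FBXO41, known from neurons, was at 0.969, 1.02 and 1.07 RPKM under siNT and 0.685, 0.721 and 0.882 RPKM under si*HKlincR1* (log2 difference -0.38, limma adjusted p = 0.312). Here too every si*HKlincR1* value was lower. FBXO48 was at 0.922, 0.653 and 0.495 RPKM under siNT and 0.496, 0.537 and 0.513 RPKM under si*HKlincR1*, with overlapping groups (log2 difference -0.33, limma adjusted p = 0.534).

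FBXO9, a receptor linked to TTI1 and TELO2 of the mTOR pathway, was measured at greater depth. It was at 6.34, 6.34 and 6.70 RPKM under siNT and 4.90, 4.70 and 5.91 RPKM under si*HKlincR1*, from 1110 to 1581 reads a library. All si*HKlincR1* values were lower, by 19.97% on average, with a log2 difference of -0.32 (SE 0.10) that missed the thresholds (limma adjusted p = 0.230).

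Among the tested genes, the largest positive difference was in FBXL13 (chromosome 7, 102451636 to 102715286, GRCh37), a leucine-rich repeat receptor. It was at 4.87, 5.61 and 3.74 RPKM under siNT and 8.70, 11.6 and 4.64 RPKM under si*HKlincR1*. Replicate 3 was the lowest library in both groups, and its si*HKlincR1* value lay inside the siNT range. The log2 difference was 0.72 (SE 0.32, limma adjusted p = 0.320). FBXL5, the iron-sensing receptor that degrades the iron regulatory protein IREB2, showed the same layout. It was at 11.5, 12.3 and 9.66 RPKM under siNT and 18.2, 18.5 and 10.0 RPKM under si*HKlincR1* (log2 difference 0.43, limma adjusted p = 0.389). Without si*HKlincR1* replicate 3, FBXL13 (log2 1.09, limma adjusted p = 0.0336) and FBXL5 (log2 0.72, limma adjusted p = 0.0282) both passed, in a fit that called 2.04% of all tested genes lower and 1.32% higher. What set that library apart was not tested.

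FBXL20, a receptor that acts on the synaptic protein RIM1, had the lowest adjusted p among the genes with a positive difference. It was at 3.22, 3.34 and 2.92 RPKM under siNT and 4.27, 4.54 and 3.93 RPKM under si*HKlincR1*. The groups did not overlap, and the log2 difference of 0.42 (SE 0.094) missed the thresholds (limma adjusted p = 0.147). FBXO16 was at 0.517, 0.701 and 0.705 RPKM under siNT and 0.867, 0.879 and 1.01 RPKM under si*HKlincR1* (log2 difference 0.47, limma adjusted p = 0.301). Its annotated exons share 51.7% of their length with ZNF395 on the same strand, so its reads are uncertain. FBXO42, linked to p53 turnover, was at 2.61, 2.59 and 2.39 RPKM under siNT and 3.18, 3.73 and 2.49 RPKM under si*HKlincR1* (log2 difference 0.28, limma adjusted p = 0.383), again with si*HKlincR1* replicate 3 inside the siNT range.

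The nearest genes to the test's limit on low values show what the limit hides. FBXO48 and FBXO27 lay just above a mean of 0.5 RPKM, and FBXO36 and FBXO2 just below it. FBXO27 was at 0.712, 0.856 and 0.452 RPKM under siNT and 0.744, 0.464 and 0.413 RPKM under si*HKlincR1*, with overlapping groups (log2 difference -0.27, limma adjusted p = 0.670). FBXO36 was at 0.466, 0.465 and 0.497 RPKM under siNT and 0.508, 0.535 and 0.440 RPKM under si*HKlincR1*, with overlapping groups. FBXO2, a receptor for glycoproteins that is best known from neurons, was at 0.803, 0.660 and 0.463 RPKM under siNT and 0.211, 0.341 and 0.315 RPKM under si*HKlincR1*. These values rest on 52, 47 and 27 reads and on 14, 23 and 22 reads, and the groups did not overlap. With the limit at 0.1 RPKM it had a log2 difference of -0.92 (SE 0.26), which did not pass the test over 20701 genes (limma adjusted p = 0.244).

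The seed match was about as common in the family as elsewhere. Of the 50 tested F-box genes 7 had at least 1 match in the 3′ UTR (14%), against 14.1% of 10765 tested protein-coding genes. FBXO21 was the only one with 2 matches (2%), against 1.98% of those genes. The 10765 are the tested protein-coding genes whose canonical 3′ UTR could be searched, at 30 nt or more. At FBXO21's first site the pairing with the guide ran over 8 bases, at FBXW11 over 9 and at FBXW2 over 8, while the other matches ended at 7. The 6 tested genes with 1 match were FBXL4, FBXO25, FBXO48, FBXW2, FBXW5 and FBXW11. Their log2 differences ran from -0.33 to 0.09 with a median of -0.04, and 3 of the 6 were lower. The 43 without a match had a median of 0.06. Over those 10765 genes the median was -0.08 with 1 match, -0.08 with 2 or more and -0.01 with none. Lower were 828 of 1300 with 1 match, 145 of 213 with 2 or more and 4731 of 9252 with none. *HKlincR1* itself is counted among those with 1 match. FBXW11, with the longest pairing, had a log2 difference of -0.18, and FBXW2 one of 0.09, where all si*HKlincR1* values were higher. The part of the siRNA's seed in any of these differences was not tested.

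No gene of the machinery that the receptors share passed the test. Of 39 listed genes (the SCF core, neddylation, the COP9 signalosome, E2 enzymes and other cullins) 38 were tested, 21 were lower and 17 higher, with a median log2 fold change of -0.01. limma and voom called 0 of them (voom called 0.544% of all genes lower and 0.0194% higher). Before adjustment, p was under 0.05 for 3 in the lower direction (7.89%) and 1 in the higher (2.63%), against 9.19% and 7.04% of all tested genes. CUL1 averaged 39.0 ± 0.296 RPKM under siNT and 37.5 ± 2.37 RPKM under si*HKlincR1* (SD, n = 3; limma adjusted p = 0.677). SKP1 averaged 11.1 ± 0.401 and 10.5 ± 0.485 RPKM (limma adjusted p = 0.561), and RBX1 3.20 ± 0.311 and 2.82 ± 0.551 RPKM (limma adjusted p = 0.551). NEDD8 was at 6.83, 6.19 and 7.73 RPKM under siNT and 4.96, 4.68 and 5.50 RPKM under si*HKlincR1*. The groups did not overlap, with a log2 difference of -0.44 that missed the thresholds (limma adjusted p = 0.165).

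F-box proteins with other names were listed by symbol, TSPAN17 and LMO7 among them, and whether each belongs to the family was not checked. On this list 7 of 8 tested genes were lower, with a median log2 fold change of -0.13. limma and voom called 0 of them, with 1 at an unadjusted p under 0.05, in the lower direction (12.5%, against 9.19% of all tested genes). The largest difference was in CCNF (cyclin F), a receptor of the G2 phase, at 7.22, 7.03 and 8.34 RPKM under siNT and 4.83, 3.80 and 6.05 RPKM under si*HKlincR1*. All si*HKlincR1* values were lower, and the log2 difference of -0.63 missed the thresholds (limma adjusted p = 0.182). Blocked on the replicate number, CCNF was called (limma adjusted p = 0.0471), in a fit that called 0.809% of all tested genes lower. SKP2, the receptor for the cell cycle inhibitor CDKN1B, averaged 20.6 ± 0.365 and 19.7 ± 3.58 RPKM. BTRC averaged 5.44 ± 0.261 and 5.64 ± 0.313 RPKM.

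The mRNAs of 14 proteins known as F-box substrates were looked at as well, although the receptors act on the proteins, which were not measured. Of these 9 were lower and 5 higher, with a median log2 fold change of -0.16, and limma and voom called 0 of them. Before adjustment, p was under 0.05 for 4 in the lower direction (28.6%) and 1 in the higher (7.14%), against 9.19% and 7.04% of all tested genes. EID1 averaged 26.8 ± 3.10 RPKM under siNT and 22.2 ± 3.69 RPKM under si*HKlincR1* (SD, n = 3; log2 difference -0.27, limma adjusted p = 0.352). MAP3K5 averaged 3.66 ± 0.377 and 4.26 ± 0.254 RPKM (log2 difference 0.22, limma adjusted p = 0.339). Neither of these genes passed the test.

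IREB2, the target of FBXL5, was at 17.2, 18.2 and 16.3 RPKM under siNT and 11.0, 12.4 and 12.7 RPKM under si*HKlincR1*. The groups lay well apart, but the log2 difference of -0.52 is below the fold limit and the limma adjusted p was 0.0673. CCNE2, a cyclin read by FBXW7, was at 2.13, 2.02 and 2.53 RPKM under siNT and 0.879, 0.888 and 1.88 RPKM under si*HKlincR1* (log2 difference -0.90, limma adjusted p = 0.230). MYC, another target of FBXW7, was at 111, 114 and 93.5 RPKM under siNT and 185, 187 and 116 RPKM under si*HKlincR1* (log2 difference 0.59, limma adjusted p = 0.237). Blocked on the replicate number, MYC was called higher (limma adjusted p = 0.0493), as were 0.511% of all tested genes. Without si*HKlincR1* replicate 3, the limma adjusted p was 0.0223 for MYC, 0.0220 for CCNE2 and 0.0293 for CCNF, each with the same direction.

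**Figure D4:**
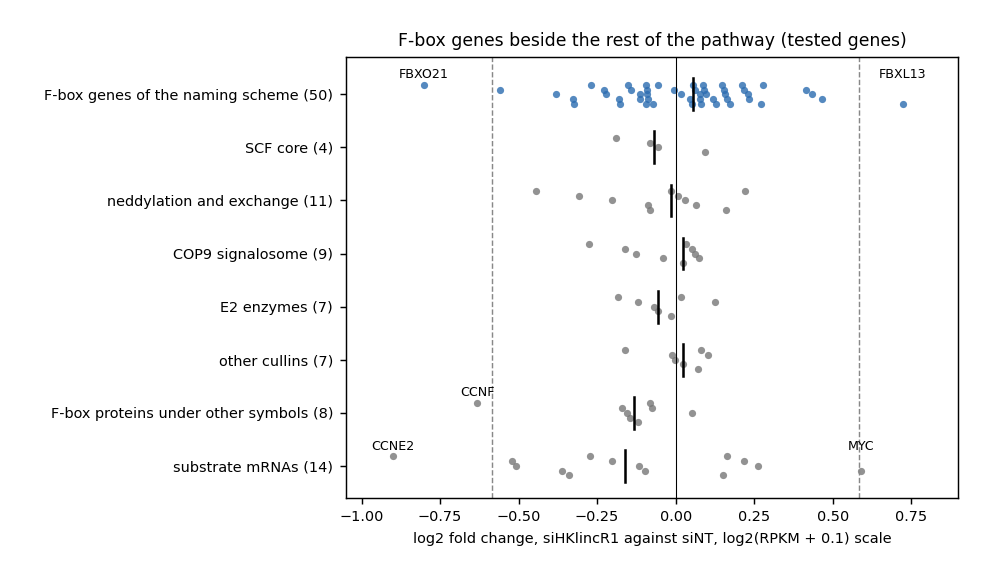
Log2 fold change (si*HKlincR1* against siNT, log2(RPKM + 0.1) scale) of the tested F-box genes, of the groups of shared machinery, of F-box proteins with other names and of the substrate mRNAs, 1 point a gene, with a thick bar at each group's median and dashed lines at a fold change of 1.5. The medians lie between -0.16 and 0.05, and FBXO21 is the only point called in the main fit, the limma fit of all 6 libraries without a block.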

How the data were processed

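Polyadenylated RNA of H460 cells was sequenced in 6 strand-specific libraries (paired-end, 75 bp), 3 with siNT and 3 with siHKlincR1_2. The authors counted reads with featureCounts of Rsubread on Ensembl v74 gene models (hg19/GRCh37) and deposited RPKM values for each gene and library. The processing notes also name CASAVA 1.8.2. The aligner and the strand setting are not given in the sources used here.

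The RPKM values were used as deposited. Reads were worked back from them, and all nonzero values came out whole (within 0.001 reads), which gives the totals and reads printed. The precision of low genes is limited by these reads. Names, overlaps and 3′ UTRs came from GENCODE v44 on GRCh37, in which 55538 of the 57773 identifiers matched. The siRNA's sense strand came from the labels, and its guide strand is the reverse complement. The label of each library names the siRNA by its target, and the protocol in the labels gives the sequence under the name siHKlincR1_2. That this siRNA was the one sequenced comes from the study's text.

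Tests used limma 3.58.1 (R 4.3.3, lmFit, then eBayes with its trend option) on log2(RPKM + 0.1), with Benjamini-Hochberg adjustment over all 15451 genes averaging 0.5 RPKM or more. For single values an exact two-sided permutation test over libraries was used. The fits were also run on simulated data with larger fold changes than that of FBXO21 and no replicate effect. That run does not show how reliable the calls given here are. The F-box genes and the other lists were chosen with earlier results of these data known, FBXO21 included, so no list was tested as a set. Values in every library are given for FBXO21, the 5 largest differences in either direction, the 5 highest levels, genes called in either fit and the genes beside the limit on low values. Of the other lists, called genes, the main subunits and a few with a large level or difference are named. TSPAN17 and LMO7 are named without values. PECAM1, an endothelial marker, was not matched by name and is not used here. The values of 1 F-box gene are not reported here, though the counts include it.

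The replicate numbers in the labels served as a block in an alternative fit. Deviations from the group means of same-numbered libraries correlated at 0.142, 0.137 and 0.266 across genes, against -0.209 to 0.113 for other pairs. On this ground the numbers were used as a block there, while the other fits had none. The lowest same-numbered value was close to the highest of the other pairs, so the pairing is uncertain. Other alternatives changed the pseudocount (1 or 0.01), the limit on low RPKM (0.1 or none), the scaling, the trend and the value tested (voom on reads), or left out each library.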

Additional observations from a re-analysis of the deposited data

How the results depend on the processing

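Without limma's mean-variance trend no F-box gene was called lower (0 against 1), since FBXO21, with a log2 fold change of -0.80, had a limma adjusted p of 0.0547. Over the fits that left out 1 library, FBXO21 lay between -0.85 and -0.75, the count of F-box genes called lower was 0 to 1, that called higher 0 to 2, and that of the other pathway genes called (shared machinery and F-box proteins with other names) 0 to 1. Of the named F-box, pathway and substrate genes, FBXL13, FBXL5 and CCNE2 were called only without si*HKlincR1* replicate 3, and CCNF and MYC only there and with the block. The marker COL1A1, which is not in those lists, also passed both thresholds as lower without si*HKlincR1* replicate 3. It was not called in the main fit or with the block. With the replicate number as a block, 1 of those pathway genes was called, the receptor CCNF, and MYC was called among the substrates, while 0 genes of the shared machinery were called. The block changed no other call among the genes named. The adjusted p of FBXO21 with the block was 0.0138. The median of the F-box genes stayed between 0.02 and 0.08, and *HKlincR1* was called in 14 of 14 alternatives. FBXO21 kept its call in 8 of 14 alternatives. Of 392 values recomputed for 28 other F-box and pathway genes, none of them called in the first place, 385 stayed uncalled, 7 newly passed and 0 changed direction.

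Over all tested genes, 55 lower and 1 higher calls became 125 and 79 with the block, 16 and 1 without the trend, 84 and 3 with voom, 48 and 5 with the limit at 0.1 RPKM, 34 and 12 with no limit, and 315 and 205 without si*HKlincR1* replicate 3. Leaving out any other library gave 7 to 18 lower and 0 to 2 higher calls. With 3 libraries a group, differences under 1.5-fold are poorly resolved, and genes under 0.5 RPKM rest on few reads. Reads shared with other genes leave FBXO11, FBXO16 and FBXW11 uncertain, and other F-box genes overlap neighbours too. On the opposite strand, FBXO6 shares 50.5% of its exon length with MAD2L2, FBXL6 31.7% with SLC52A2 and FBXO22 16.2% with NRG4.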

Other observations

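Of the other genes around FBXO21 on chromosome 12, FBXW8 and TESC were tested and neither passed. FBXW8, itself an F-box gene that pairs with CUL7, lies within 250 kb and was at 3.90, 4.26 and 3.64 RPKM under siNT and 4.64, 4.86 and 4.79 RPKM under si*HKlincR1*. All si*HKlincR1* values were higher, with a log2 difference of 0.27 (limma adjusted p = 0.231), opposite in sign to that of FBXO21. TESC, between FBXW8 and FBXO21, averaged 30.3 RPKM under siNT and 29.6 RPKM under si*HKlincR1* (log2 difference -0.05, limma adjusted p = 0.899). TESC-AS1, which overlaps the end of FBXO21 on the opposite strand, averaged 0.0379 RPKM, and NOS1 was near 0.

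The table also holds 12 rows with an F-box prefix that do not code for protein, and limma called none of the 3 that were tested. The pseudogene FBXW11P1 was at 1.91, 2.20 and 2.01 RPKM under siNT and 1.62, 1.69 and 1.90 RPKM under si*HKlincR1* (log2 difference -0.22, limma adjusted p = 0.373). FBXW4P1 averaged 0.914 and 1.10 RPKM (log2 difference 0.26, limma adjusted p = 0.495), and the antisense RNA FBXL19-AS1 0.448 and 0.558 RPKM (log2 difference 0.27, limma adjusted p = 0.617). FBXO36-IT1, FBXW7-AS1, FBXO3-DT and FBXO34-AS1 were listed at 0 in all libraries.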
